A study of Mus musculus with 10 samples.

Results

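The bone morphogenetic protein (BMP) pathway was followed through 10 genes in mouse duodenal organoids, looked up by gene symbol among the 24016 symbols of the deposited nascent transcription table. They are the ligand genes Bmp2, Bmp4 and Bmp7, the receptor gene Bmpr1a, the target genes Id1, Id2 and Id3, and the inhibitor genes Smad6, Smad7 and Bambi. All 10 were found, each with 1 transcript at 1 place in the genome. The organoids were cultured in 1 of 2 media. ENRI, called the enterocyte differentiation medium in the labels, held EGF, Noggin and R-spondin with IWP-2, an inhibitor of Wnt secretion. WENRC, the stem cell medium, held EGF, Noggin and R-spondin with Wnt3A and CHIR-99021, a GSK3 inhibitor that activates Wnt signalling. Noggin, a secreted protein that binds BMP ligands and keeps them from their receptors, was therefore present in both media, and no group without it was compared. Nascent transcription was measured by GRO-seq, in which nuclei extend the transcripts they are making with a labelled nucleotide, in 2 libraries of each medium. H3K27me3, the histone mark laid down by Polycomb repressive complex 2, was measured by ChIP-seq in 1 library of each medium. No genotype, strain or age of the mice is given in the sources used here, and the titles number mice 1 and 2 in both media.

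BMP ligands are secreted dimers that bring together type I receptors such as Bmpr1a and type II receptors such as Bmpr2. The receptors phosphorylate Smad1, Smad5 and Smad9, which join Smad4 and switch on target genes, among them Id1, Id2 and Id3, whose proteins block bHLH transcription factors by pairing with them. Smad6, Smad7 and Bambi are themselves induced by the pathway and damp it. In the intestine, BMP signalling is low at the crypt base and stronger towards the villus, and mesenchymal cells under the epithelium are a main source of both ligands and antagonists.

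Summed over all transcripts, the GRO-seq libraries held 29128101 and 15787828 reads in ENRI and 25839484 and 9245915 in WENRC. These are given for batch 1 and batch 2 as the header of the deposited table numbers them. A read that lies in several transcripts can count more than once in these sums. With 1 transcript per symbol they were 18368113 and 10245600 in ENRI and 16302198 and 5868899 in WENRC. Levels are given as RPKM, reads per kilobase of the whole gene body scaled to the sum over all transcripts of the library. Across the tested genes the log2 levels of the pair of ENRI libraries correlated with r = 0.874 and those of the WENRC pair with r = 0.949. The epithelial markers (10 of 10 tested) summed to 224 and 191 RPKM in ENRI and to 152 and 158 RPKM in WENRC. Of these sums Krt19 made up 72.3 and 50.6 RPKM in ENRI and 28.2 and 27.7 RPKM in WENRC. Among the 10 markers 5 were higher and 5 lower in ENRI in limma, against 9 higher and 1 lower in edgeR. ENRI was higher for all 8 enterocyte markers (median log2 difference 3.64) and lower for all 8 stem cell markers (median -1.72) in limma, edgeR and DESeq2 and with quantile or TMM scaling, but 4 of the stem cell markers (Lgr5, Ascl2, Olfm4 and Msi1) passed the filter only through WENRC and as tested genes had to be lower in ENRI. The 15 mesenchymal markers summed to 1.27 and 1.67 RPKM in ENRI, against 2.17 and 1.76 RPKM in WENRC, and 1 of them, Acta2, passed the filter on low values. The 6 endothelial markers summed to 0.320 and 0.235 RPKM in ENRI, against 0.932 and 1.18 RPKM in WENRC, of which Esam made up 0.211 and 0.111 RPKM in ENRI and 0.840 and 1.00 RPKM in WENRC. The 7 immune markers summed to 5.83 and 5.84 RPKM in ENRI, against 13.8 and 17.6 RPKM in WENRC, of which Cd68 made up 5.25 and 5.47 RPKM in ENRI and 13.1 and 16.5 RPKM in WENRC. The part of these other markers in the results was not tested.

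In ENRI organoids Bmp2 transcription stood above its level in WENRC organoids, while Bmp7, Bmpr1a, Id2 and Id3 stood below theirs and Id1 did not separate the media. Of the inhibitors, the mean of Smad7 was higher in ENRI and the means of Smad6 and Bambi were lower. Bmp4 had a few reads in ENRI and none in WENRC. The values of the media did not overlap for 9 of the 10 genes, 3 higher and 6 lower in ENRI, and the same held for 72.7% of the 11602 symbols tested, 23% higher and 49.7% lower. Among all symbols with a read the share was 53.5%, 16.7% higher and 36.8% lower.

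**Figure D1:**
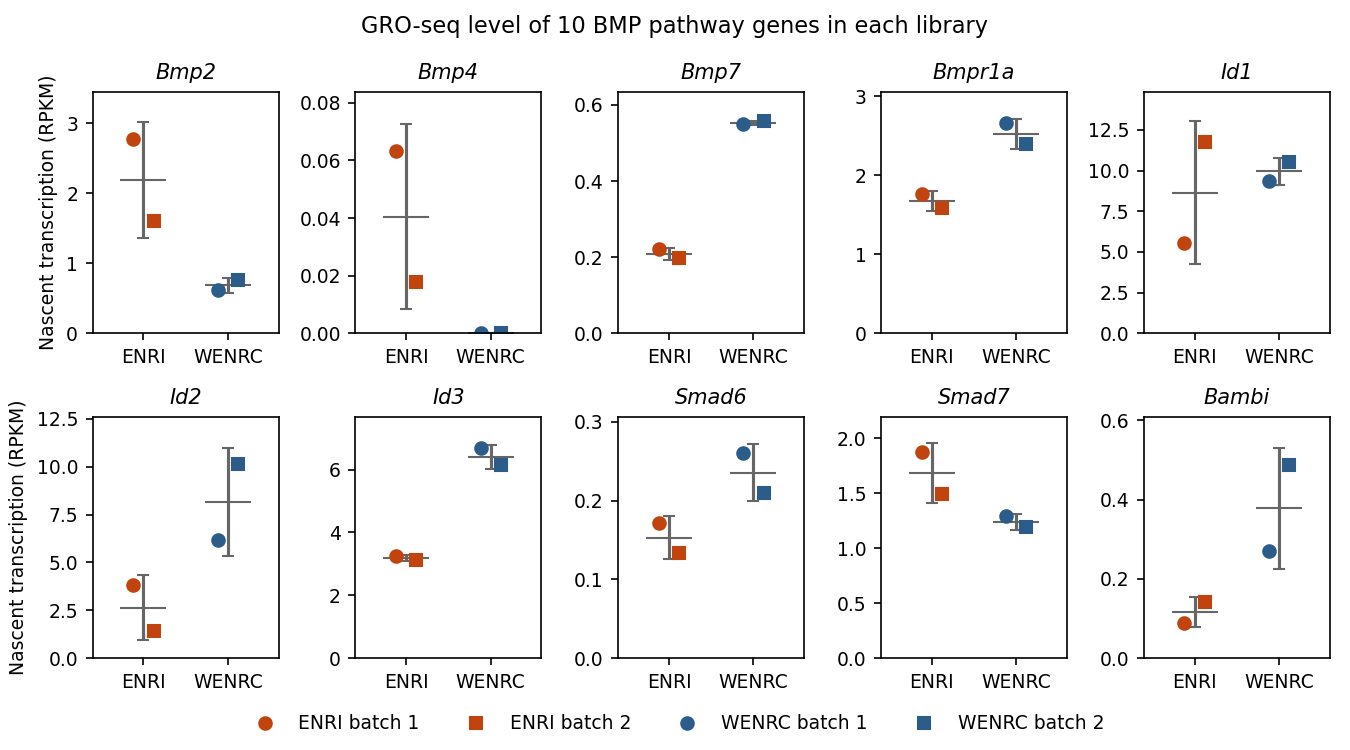
GRO-seq level in RPKM of the 10 BMP pathway genes in each library, with ENRI left of WENRC, circles for batch 1 and squares for batch 2, and lines for the mean and SD of the 2 libraries. Each panel has its own scale, and only in the Id1 panel do the 2 media overlap.

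The change was tested with limma on log2(RPKM + 0.5), which understates the change of low genes, for symbols that reached 0.5 RPKM in 2 or more libraries. Of the 10 genes 7 passed this filter, and Bmp4, Smad6 and Bambi did not. None of the 7 passed a Benjamini-Hochberg adjusted p of 0.05 in limma, against 17 of 11602 genes (0.147%, of which 0.0603% higher and 0.0862% lower), while 5 of the 7 and 4521 of all genes had an unadjusted p under 0.05. Of the 7 genes 2 were higher and 5 lower in ENRI, with a median log2 difference of -0.48, beside -0.21 for all tested genes. Every log2 difference from limma below can be read against that shift of all genes, which edgeR's scaling moves to -0.03. On the recovered whole reads, edgeR's quasi-likelihood test called 2 of the 7, Bmp2 higher and Bmp7 lower, with and without the batch as a block, while it called 8.44% of all genes without the block (5.6% higher and 2.84% lower) and 7.93% with it. DESeq2 called Bmp2, Smad7 and Bmp7, while it called 23.6% of all genes. With the block it called Bmp2 and Bmp7, and 14.9% of the 11152 genes to which it then gave an adjusted p. The number of calls depended on the libraries. Without the ENRI library of batch 1 limma called 5 of the 7 (Bmp2 higher and Bmp7, Bmpr1a, Id2 and Id3 lower) and 5792 of all genes, with the lone ENRI library assumed to vary like the WENRC pair. Without the ENRI library of batch 2 limma called 1 of the 7, Bmp2, and 672 of all genes, and without the WENRC library of batch 1 or of batch 2 it called none (1674 and 1352 of all genes had an unadjusted p under 0.05).

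Bmp2 (NM_007553, chr2:133377895-133388632, plus strand, mm9) encodes a BMP ligand that is made in part by the gut epithelium itself. Its level was 2.77 and 1.60 RPKM in ENRI (866 and 271 reads), against 0.613 and 0.756 RPKM in WENRC (170 and 75 reads). Both ENRI libraries lay above both WENRC libraries, and they also lay farther apart from each other. The mean was 2.18 ± 0.828 RPKM in ENRI and 0.684 ± 0.101 RPKM in WENRC (SD, n = 2 each), a ratio of 3.19. Within batch 1 the ratio of ENRI over WENRC was 4.52 (exact 95% counting interval 3.83 to 5.36) and within batch 2 it was 2.12 (1.63 to 2.77). These intervals cover counting error only, and PCR reads are not independent molecules. The log2 difference in limma was 1.15 ± 0.25 (SE), with an adjusted p of 0.0624. On the whole reads it was 1.92 with an adjusted p of 0.0438 in edgeR, which a filter of 10 reads moved to 0.0833, and 1.95 with 1.98e-05 in DESeq2. The authors' deposited table gives a log2 fold change of 1.88 at an FDR of 0.00142. In bulk libraries, fewer cells of a type and less RNA made per cell cannot be told apart.

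Bmp4 (NM_007554, chr14:47003196-47010274, minus strand, mm9) encodes the ligand that mesenchymal cells of the gut are best known for. It had 13 and 2 reads in ENRI, which is 0.0631 and 0.0179 RPKM, against 0 and 0 reads in WENRC. Only 1 ENRI library therefore held more than 3 reads, and in the 2 ENRI libraries 37.6% and 22.8% of symbols had a level at or below that of Bmp4. Against a floor of 3 reads over both WENRC libraries, the 15 reads of ENRI amount to a level 3.91-fold higher. This ratio leaves out the counting error of the 15 reads, so it is not a lower limit. It rests on the ENRI library of batch 1. Within batches the lower limit of the exact 95% counting interval of ENRI over WENRC was 2.70 in batch 1 and 0.11 in batch 2. The gene shares 85 bp with Gm15217, which itself had 3 and 1 reads in ENRI and 0 and 0 in WENRC, and the strand setting of the counting is not stated. The authors' deposited table gives Bmp4 a log2 fold change of 5.92 at an FDR of 0.0191, a size that depends on the prior count since WENRC had no read. At this FDR that table calls 2 of the 10 genes, Bmp2 and Bmp4, both higher in ENRI, and 8.98% of its 33022 transcripts, 5.82% as higher. Of the 15 mesenchymal markers, 2 and 3 were at 0 in ENRI, against 3 and 1 in WENRC, and Lum and Foxl1 had no read in either ENRI library or in the WENRC library of batch 1. Their highest value was 1.41 RPKM, that of Acta2 in WENRC.

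Bmp4 is shown by its promoter because H3K27me3 covered its start in both media, as described with the peaks. Promoter sequences are those of RefSeq in build GRCm38.p6, 250 bases before to 50 after the start, and 5 of the 10 genes were matched (Bmp4, Bmpr1a, Id2, Id3 and Smad6). Their starts in that build need not be those of the mm9 transcripts. Capitals mark the motifs GGCGCC and GGAGCC, which BMP Smads bind, and CTTTGAT, which TCF/LEF factors bind, on either strand and without overlap between them. The sequence of Bmp4 lies at chr14:46390620-46390919 on the minus strand.
Bmp4: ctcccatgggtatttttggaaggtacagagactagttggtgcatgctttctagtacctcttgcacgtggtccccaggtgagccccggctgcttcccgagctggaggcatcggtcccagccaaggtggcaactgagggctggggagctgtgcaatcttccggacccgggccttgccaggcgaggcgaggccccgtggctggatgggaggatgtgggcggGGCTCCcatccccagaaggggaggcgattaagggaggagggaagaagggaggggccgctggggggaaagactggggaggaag
This window held 1 GGAGCC, on the reverse strand at -32 bp, and no GGCGCC or CTTTGAT. Of the 32851 promoters in the RefSeq table, 30.8% held GGAGCC, 11.9% GGCGCC and 3.73% CTTTGAT, so a match to GGAGCC is common. Its GC content was 64%, beside a median of 52.7% over all promoters.

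Bmp7 (NM_007557, chr2:172693513-172765822, minus strand, mm9) encodes a further ligand and spans 72.3 kb. Its level was 0.221 and 0.198 RPKM in ENRI (465 and 226 reads), against 0.549 and 0.556 RPKM in WENRC (1026 and 372 reads). The groups were far apart compared with the spread inside each, at 0.209 ± 0.0161 RPKM in ENRI and 0.553 ± 0.00515 RPKM in WENRC (SD, n = 2 each). It passed the filter through its WENRC libraries alone, so as a tested gene it had to be lower in ENRI. The ratio of ENRI over WENRC was 0.402 (0.360 to 0.449) in batch 1 and 0.356 (0.300 to 0.421) in batch 2. The log2 difference was -0.57 ± 0.13 (SE) in limma with an adjusted p of 0.0666, where the pseudocount of 0.5 is about as large as the levels themselves. In edgeR it was -1.16 with an adjusted p of 0.0424, and 0.0497 with the batch block, while a filter of 10 reads gave 0.0827.

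Bmpr1a (NM_009758, chr14:35224254-35315732, minus strand, mm9) encodes a type I receptor through which BMP signals reach the intestinal epithelium. Its level was 1.76 and 1.58 RPKM in ENRI (4699 and 2285 reads), against 2.66 and 2.39 RPKM in WENRC (6289 and 2021 reads). It had the most reads of the 10 genes, and its ratio of ENRI over WENRC was 0.663 (0.638 to 0.688) in batch 1 and 0.662 (0.623 to 0.703) in batch 2. The lower level in ENRI was thus of the same size in both batches to within counting error. The log2 difference of -0.48 ± 0.14 (SE) had an adjusted p of 0.0904 in limma, and after subtracting the median of all tested genes it was -0.27. In edgeR it was -0.35 with an adjusted p of 0.253.

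**Figure D2:**
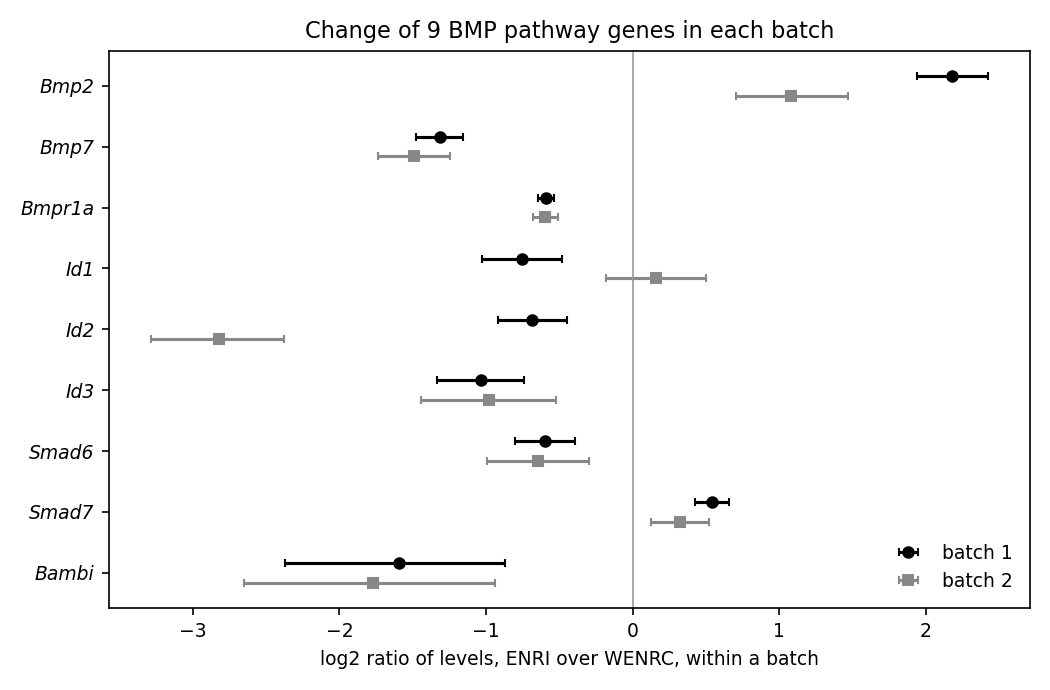
Log2 ratio of RPKM in ENRI over WENRC within batch 1 (circles) and batch 2 (squares) for 9 of the genes, with exact 95% counting intervals as bars; Bmp4 is left out because WENRC had no read. Bmpr1a, Id3, Smad6, Bambi and Bmp7 lie at nearly the same place in both batches, whereas Bmp2 and Id2 keep their side with unlike sizes and Id1 changes side.

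The Id genes had the highest mean RPKM of the 10 in both media, although Id2 lay below Bmp2, Bmpr1a and Smad7 in the ENRI library of batch 2. They are short, at 1.16 kb for Id1, 2.29 kb for Id2 and 1.57 kb for Id3, so polymerase near the start makes up more of a gene body than in a long gene, and it was not separated from the rest here.

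Id1 (NM_010495, chr2:152561987-152563146, plus strand, mm9) had 5.54 and 11.8 RPKM in ENRI (187 and 215 reads), against 9.35 and 10.5 RPKM in WENRC (280 and 113 reads). The ENRI libraries lay on either side of both WENRC libraries. The mean was 8.64 ± 4.39 RPKM in ENRI and 9.95 ± 0.845 RPKM in WENRC (SD, n = 2 each). The ratio of ENRI over WENRC was 0.592 (0.490 to 0.715) in batch 1 and 1.11 (0.883 to 1.41) in batch 2, and these intervals do not meet. The log2 difference was -0.28 ± 0.41 (SE) with an adjusted p of 0.636 in limma, and 0.051 with an adjusted p of 0.946 in edgeR without the block, against -0.062 in edgeR with the block. With quantile or TMM scaling in limma it stayed negative, at -0.29 and -0.030.

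Id2 (NM_010496, chr12:25778664-25780957, minus strand, mm9) had 3.83 and 1.44 RPKM in ENRI (256 and 52 reads), against 6.16 and 10.1 RPKM in WENRC (365 and 215 reads). Both ENRI libraries were lower than both WENRC libraries, and the gap was widest in batch 2. The mean was 2.63 ± 1.69 RPKM in ENRI and 8.15 ± 2.81 RPKM in WENRC (SD, n = 2 each). The ratio of ENRI over WENRC was 0.622 (0.528 to 0.732) in batch 1 and 0.142 (0.103 to 0.193) in batch 2. The log2 difference of -1.54 ± 0.49 (SE), the largest of the 7 tested genes, had an adjusted p of 0.0987 in limma and 0.137 in edgeR. It was -2.12 without the ENRI library of batch 1, which limma then called, and -0.96 without that of batch 2.

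Id3 (NM_008321, chr4:135699737-135701307, plus strand, mm9) had 3.26 and 3.11 RPKM in ENRI (149 and 77 reads), against 6.68 and 6.13 RPKM in WENRC (271 and 89 reads). The libraries of each medium nearly coincided, at 3.18 ± 0.107 RPKM in ENRI and 6.41 ± 0.388 RPKM in WENRC (SD, n = 2 each). The ratio of ENRI over WENRC was 0.488 (0.397 to 0.598) in batch 1 and 0.507 (0.369 to 0.695) in batch 2. The log2 difference was -0.91 ± 0.17 (SE) with an adjusted p of 0.0576 in limma, the lowest of the 7, and -0.77 with 0.0892 in edgeR. The authors' deposited table gives -0.77 at an FDR of 0.363 for Id3, and -1.47 at an FDR of 0.0640 for Id2.

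The promoters of Id2 and Id3 are shown because these are the target genes whose media were apart. They lie at chr12:25096043-25096342 on the minus strand for Id2 and at chr4:136143572-136143871 on the plus strand for Id3, with capitals as above.
Id2: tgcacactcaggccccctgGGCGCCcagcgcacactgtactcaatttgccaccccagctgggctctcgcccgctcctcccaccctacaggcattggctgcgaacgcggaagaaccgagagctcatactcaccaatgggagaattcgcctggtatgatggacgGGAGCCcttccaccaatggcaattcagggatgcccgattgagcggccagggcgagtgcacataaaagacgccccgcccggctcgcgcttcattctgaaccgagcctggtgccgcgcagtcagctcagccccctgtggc
Id3: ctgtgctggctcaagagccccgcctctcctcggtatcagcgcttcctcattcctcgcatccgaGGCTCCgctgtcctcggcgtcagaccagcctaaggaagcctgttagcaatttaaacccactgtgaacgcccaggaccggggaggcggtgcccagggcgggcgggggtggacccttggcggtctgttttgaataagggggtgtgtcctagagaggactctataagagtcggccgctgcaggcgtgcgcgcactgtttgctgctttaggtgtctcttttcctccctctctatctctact
Id2 held 1 GGCGCC at -231 bp and 1 GGAGCC at -88 bp, and Id3 held 1 GGAGCC, on the reverse strand, at -187 bp. Id3 also held 2 copies of the Smad box CAGAC, which 49.6% of promoters hold and which is not capitalised. Neither window held CTTTGAT.

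Likeness between genes was measured as the Euclidean distance between the 4 values of log2(RPKM + 0.5), over 11602 tested genes. Each gene was first centred on its own mean. The nearest to Id3 were Nrtn (0.0337), Acly (0.0488) and Ccna2 (0.0527), which encode neurturin, ATP citrate lyase and cyclin A2. Nrtn had 0.116 and 0.0919 RPKM in ENRI, against 0.674 and 0.558 RPKM in WENRC, so it passed the filter through WENRC alone. At such levels the pseudocount of 0.5 shrinks the change of Nrtn more than that of Id3, so their nearness depends on it. The nearest to Id1 were Pcna (0.112), Hist3h2a (0.129) and Dpm3 (0.153), of which Pcna had 4.40 and 10.4 RPKM in ENRI and 7.99 and 9.39 RPKM in WENRC. The nearest to Id2 were Mir7686 (0.220), Mir7059 (0.227) and Defa4 (0.241), each without a read in the ENRI library of batch 2. No Id gene was among the 3 nearest to another. Counted from Id3, Id2 was at rank 8394 and Id1 at rank 7502. Counted from Id2, Id3 was at rank 1723, the nearest of the members, and Id1 at rank 8598. Bmp7 was the member nearest to Id3, at rank 1061. Like Nrtn, Bmp7 passed the filter through WENRC alone and had levels near or below the pseudocount, so its nearness to Id3 also depends on the pseudocount.

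The 3 inhibitors act at different steps, with Bambi a pseudoreceptor at the membrane, Smad6 a competitor of the BMP Smads inside the cell and Smad7 an inhibitor of both BMP and TGF-beta receptors. Smad6 (NM_008542, chr9:63800883-63869866, minus strand, mm9) had 0.172 and 0.134 RPKM in ENRI (346 and 146 reads), against 0.261 and 0.210 RPKM in WENRC (465 and 134 reads). The ENRI libraries were lower, and the ratio was 0.660 (0.573 to 0.760) in batch 1 and 0.638 (0.501 to 0.813) in batch 2. With a filter of 10 reads in place of 0.5 RPKM its log2 difference in limma was -0.17 with an adjusted p of 0.220.

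Smad6 is shown by its promoter because, unlike at Bmp4, H3K27me3 began only after its start. The window lies at chr9:64022010-64022309 on the minus strand in GRCm38.p6.
Smad6: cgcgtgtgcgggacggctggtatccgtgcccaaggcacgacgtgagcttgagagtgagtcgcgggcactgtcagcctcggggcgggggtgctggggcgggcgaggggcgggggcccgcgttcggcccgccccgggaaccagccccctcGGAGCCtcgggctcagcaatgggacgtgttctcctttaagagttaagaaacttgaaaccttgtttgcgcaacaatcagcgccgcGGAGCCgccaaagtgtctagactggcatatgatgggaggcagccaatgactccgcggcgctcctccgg
It held 2 copies of GGAGCC and no GGCGCC or CTTTGAT, with a GC content of 66.3% and 31 CpG, beside a median of 7 CpG over all promoters.

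Smad7 (NM_001042660, chr18:75527019-75555588, plus strand, mm9) had 1.87 and 1.49 RPKM in ENRI (1560 and 671 reads), against 1.29 and 1.19 RPKM in WENRC (952 and 314 reads). The media were apart, and the ratio of ENRI over WENRC was 1.45 (1.34 to 1.58) in batch 1 and 1.25 (1.09 to 1.44) in batch 2. The log2 difference was 0.32 ± 0.15 (SE) with an adjusted p of 0.179 in limma, 0.68 with 0.0719 in edgeR and 0.71 with 0.0371 in DESeq2, which was 0.243 with the batch block. The authors' deposited table, with batch as a term, gives Smad7 an FDR of 0.309.

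Bambi (NM_026505, chr18:3507955-3516402, plus strand, mm9) had 0.0894 and 0.142 RPKM in ENRI (22 and 19 reads), against 0.270 and 0.487 RPKM in WENRC (59 and 38 reads). The ENRI libraries were lower, and the ratio was 0.331 (0.193 to 0.548) in batch 1 and 0.293 (0.159 to 0.521) in batch 2. With the filter of 10 reads its log2 difference was -0.50 with an adjusted p of 0.0779 in limma and -1.44 with 0.274 in edgeR.

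Ordered by level per length in ENRI, Id1 came first, followed by Id3, Id2, Bmp2, Smad7, Bmpr1a, Bmp7, Smad6, Bambi and Bmp4. From Id3 to Bmpr1a each gene lay within the spread of its neighbour in this order (the ranges of mean ± SD overlap), and so did Smad6 and Bambi. In WENRC the order was Id1, Id2, Id3, Bmpr1a, Smad7, Bmp2, Bmp7, Bambi, Smad6 and Bmp4, where the 3 Id genes lay within the spread of their neighbours, as did Bambi and Smad6. Bmp2 thus stood above Bmpr1a and Smad7 in mean level in ENRI and below both in WENRC.

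The H3K27me3 peaks were called by the authors in 1 library of each medium, from 29.8M tags in ENRI and 31.4M in WENRC, so a difference between media has no replicate check. Each medium has a narrow list (55544 regions in ENRI and 33499 in WENRC) and a broad list (6094 regions in ENRI and 5009 in WENRC). A promoter was taken as 2 kb either side of the mm9 start and as marked where a region overlapped it by at least 1 bp. None of the 10 promoters was marked in all 4 lists, and 5 (Bmpr1a, Id1, Id2, Id3 and Smad7) were marked in none. The ENRI narrow list marked Bmp4, Bmp7, Smad6 and Bambi, beside 19.6% of all symbols, and the ENRI broad list marked Smad6, beside 8.76%. The WENRC narrow list marked Bmp2, Bmp4 and Smad6, beside 17.8%, and the WENRC broad list marked Bmp4, beside 10.5%.

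Bmp4 and Smad6, both transcribed at low levels, carried the mark in both media. At Bmp4 a narrow region ran from -632 to 5242 bp around the start in ENRI, with 103 tags per 10M and 6.52-fold over input by the authors' values. In WENRC it ran from -691 to 5051 bp with 114 tags per 10M and 6.14-fold over input, so the same stretch of the gene was covered. The WENRC broad region reached from -9220 to 6714 bp, a length of 15934 bp, whereas the nearest ENRI broad region was 183 kb away. That WENRC broad region was 4-fold over input, at the limit for the calls, with a score that 44.1% of its list did not exceed. At Smad6 the narrow region lay inside the gene in both media, from 1384 to 3709 bp in ENRI (41.9 tags per 10M) and from 336 to 2676 bp in WENRC (48.3 tags per 10M).

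Bmp2, Bmp7 and Bambi were marked in 1 medium each, and in each case transcription was lower in the medium that carried the mark. At Bmp2 the region was in WENRC, from 909 to 1409 bp. It held 7.63 tags per 10M, beside a median of 7.95 in its list, at a score that 84.8% of the list did not exceed. Its fold over input was 4.18, near the limit of 4 for the calls and beside a median of 5.23. The nearest narrow region in ENRI was 30.4 kb away. At Bmp7 the region was in ENRI, from -1926 to -1291 bp. It held 7.37 tags per 10M, beside a median of 7.71, at 20.02-fold over input, beside a median of 5.2-fold. Its score of 16 lay below the median of 18, and 24.4% of the list did not exceed that score. At Bambi the mark was in ENRI, from -2820 to -509 bp with 39.5 tags per 10M and from 710 to 1363 bp with 7.37. The nearest narrow region in WENRC ended 8613 bp before the start. Over all symbols with at least 10 reads in 2 libraries, the median log2 difference was -0.09 for the 747 marked only in the ENRI narrow list. It was -0.00 for the 624 marked only in the WENRC narrow list, -0.01 for the 2121 marked in both and -0.13 for the 13262 marked in neither. Median levels in ENRI were 0.0342, 0.114, 0.0293 and 0.557 RPKM for these classes in the same order, so the classes also differed in level. That the mark went with the lower medium at the 3 genes was noted after their values were seen, and it was not tested.

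**Figure D3:**
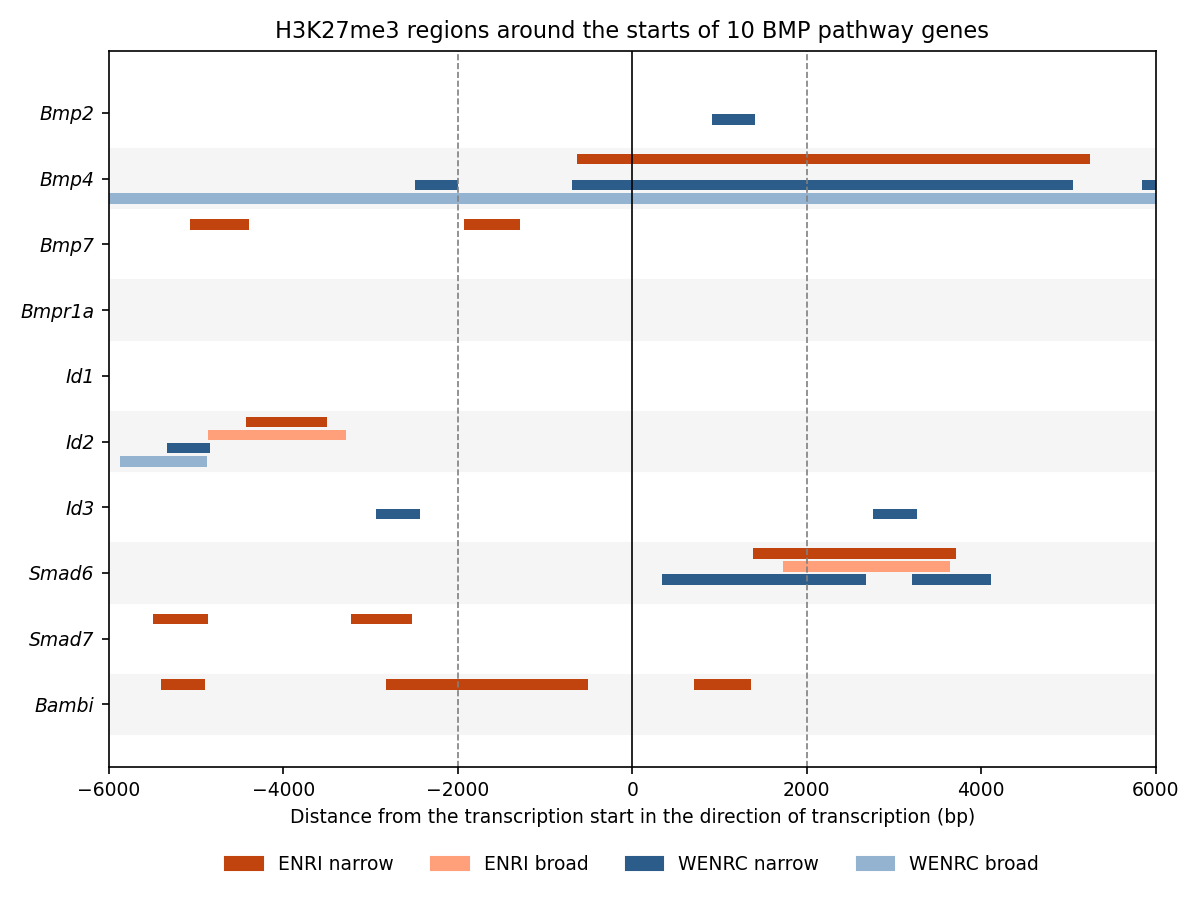
H3K27me3 regions of the ENRI narrow, ENRI broad, WENRC narrow and WENRC broad lists by distance from the mm9 start of each of the 10 genes in bp, positive in the direction of transcription; dashed lines mark 2 kb either side. Bmp4 is covered across its start in both media, Smad6 downstream of it, and no region is drawn at Bmpr1a or Id1.

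The Id genes lay outside the mark at their starts. Upstream of Id2 all 4 lists held a region beyond the 2 kb limit, the ENRI narrow region from -4429 to -3498 bp and the WENRC narrow region from -5336 to -4836 bp, which do not overlap. Id3 had narrow regions in WENRC from -2934 to -2434 bp and from 2759 to 3259 bp, and the nearest in ENRI lay 6991 bp away. The ENRI narrow region upstream of Id2 held 19.1 tags per 10M, beside a median of 7.71, at a score that 98.7% of the list did not exceed. Smad7 had ENRI narrow regions from -3224 to -2527 bp and from -5496 to -4869 bp, with 9.05 and 8.71 tags per 10M. The nearest region to Id1 in any list was 11.5 kb away and the nearest to Bmpr1a 66.3 kb away.

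Further genes of the pathway and of related families were read from 8 lists with 81 genes, of which 35 passed the filter. In limma none of the 35 passed the test, beside the 0.147% of all genes. An unadjusted p under 0.05 in limma was found for 10 of the 35, beside 4521 of all 11602 genes. In edgeR 2 passed, both lower in ENRI (Rgmb and Tgif2), beside 8.44% of all genes. In DESeq2 4 passed as higher and 4 as lower, beside 23.6% of all genes. The median log2 difference of the 35 was -0.13 in limma and 0.10 in edgeR, so its sign depends on the scaling, as it does for the list of receptors.

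Of 13 other ligands, taken by family name (BMP or GDF) and not by receptor, 5 were tested, 1 higher and 4 lower in ENRI. Gdf15, a ligand induced by cell stress, had 3.16 and 1.61 RPKM in ENRI, against 9.96 and 20.4 RPKM in WENRC, with a log2 difference of -2.41 ± 0.47 (SE) and an adjusted p of 0.0585 in limma. Bmp3, a ligand known to oppose other BMPs, had 0.656 and 1.90 RPKM in ENRI, against 0.152 and 0.228 RPKM in WENRC, at 1.27 ± 0.38 with an adjusted p of 0.0914. The media were apart for both genes, but Bmp3 passed the filter through its ENRI libraries alone, so as a tested gene it had to be higher in ENRI. In edgeR the adjusted p was 0.0531 for Gdf15 and 0.0538 for Bmp3, and 0.0448 and 0.0194 with the batch block. The authors' deposited table gives Gdf15 -2.39 at an FDR of 0.000464 and Bmp3 2.82 at an FDR of 1.72e-06. Bmp8b and Gdf11 had differences of -0.77 and -0.58. For Bmp8b the media overlapped, at 2.20 and 0.297 RPKM in ENRI, against 2.01 and 1.98 RPKM in WENRC.

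Of 11 other receptors and co-receptors 5 were tested, 1 higher and 4 lower in limma, against 3 higher and 2 lower in edgeR. Rgmb, a membrane-anchored BMP co-receptor, had 1.38 and 1.73 RPKM in ENRI, against 6.02 and 8.54 RPKM in WENRC. Its log2 difference was -1.91 ± 0.24 (SE) with an adjusted p of 0.0560 in limma and -1.98 with 0.0424 in edgeR. Bmpr2, Acvrl1 and Acvr1 lay between -0.21 and -0.08 in limma, and the last 2 of these turned positive in edgeR. The transducers Smad1 (0.23 ± 0.15), Smad5 (-0.13 ± 0.14) and Smad4 (0.02 ± 0.11) had differences of less than 2 SE in limma.

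**Figure D4:**
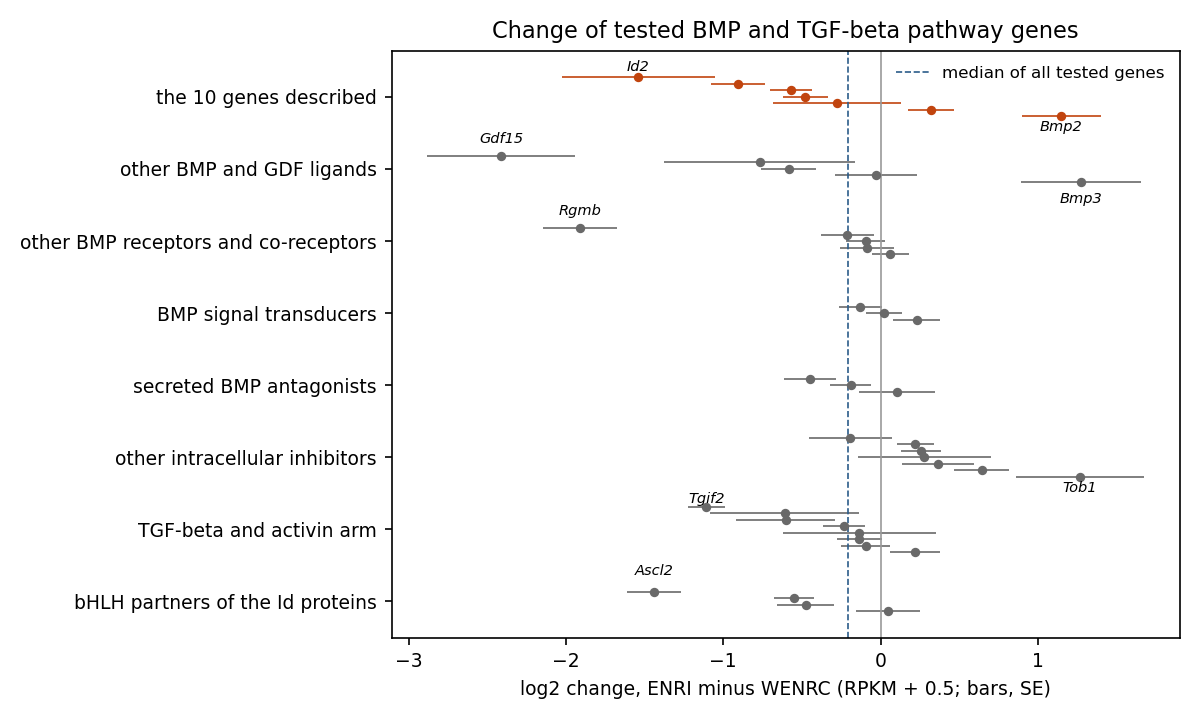
Log2 difference of ENRI minus WENRC from limma on log2(RPKM + 0.5), with SE, for the tested genes among the 10 described (7, in colour) and in the 7 pathway lists with a tested gene; the dashed line is the median of all tested genes, -0.21. Gdf15, Rgmb, Id2, Ascl2 and Tgif2 lie farthest to the left, and Bmp3, Tob1 and Bmp2 farthest to the right.

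Of 17 secreted antagonists 3 were tested, Dand5 (-0.45), Twsg1 (-0.19) and Crim1 (0.11). Nog, the mouse gene for Noggin, had 3 and 0 reads in ENRI, against 0 and 2 reads in WENRC, and Grem1, a mesenchymal antagonist, had 3 and 1 reads in ENRI, against 1 and 2 reads in WENRC. The Noggin protein in the media was added, and it is not seen by a measure of transcription. All 7 other intracellular inhibitors were tested, with 6 higher in ENRI and a median log2 difference of 0.28, and 0.67 in edgeR. The antiproliferative gene Tob1, whose protein also restrains BMP Smads, had 27.03 and 48.4 RPKM in ENRI, against 12.8 and 17.0 RPKM in WENRC, at 1.27 ± 0.41 (SE) with an adjusted p of 0.101 in limma. For Tob1 the adjusted p was 0.0624 in edgeR, 0.0412 with the batch block and 0.000978 in DESeq2, and the authors' deposited table gives an FDR of 0.00362. Ppm1a, a phosphatase that can act on Smads, had 2.41 and 3.20 RPKM in ENRI, against 1.56 and 1.64 RPKM in WENRC, at 0.64 ± 0.18 with an adjusted p of 0.0810. Skil and Tob2 had differences of 0.37 and 0.28.

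None of 7 other targets of the pathway (Id4, Atoh8, Hey1, Msx1, Msx2, Hamp and Hamp2) passed the filter, and the highest value among them was 0.681 RPKM. Of the 15 genes of the TGF-beta and activin arm 8 were tested, 1 higher and 7 lower in limma and 4 each way in edgeR. Tgif2, a repressor that binds Smads, had 0.900 and 0.879 RPKM in ENRI, against 2.47 and 2.52 RPKM in WENRC, at -1.11 ± 0.12 (SE) with an adjusted p of 0.0560 in limma and 0.0424 in edgeR. Tgif1 (-0.60) and Tgfbr1 (-0.23) were lower with larger adjusted p. Tgfbr2 had a difference of -0.61, but its media overlapped, at 5.32 and 1.88 RPKM in ENRI, against 4.75 and 5.63 RPKM in WENRC. Of 7 bHLH genes whose proteins pair with or are blocked by Id proteins 4 were tested, among them Ascl2, a stem cell factor, with 0.197 and 0.363 RPKM in ENRI, against 1.44 and 1.77 RPKM in WENRC, at -1.44 ± 0.17 with an adjusted p of 0.0560. Ascl2 passed the filter through its WENRC libraries alone, so as a tested gene it had to be lower in ENRI, and in this it was like Dand5 and Tgfbr1. Tcf3 (-0.55), Tcf12 (-0.48) and Atoh1 (0.05) were the others.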

How the data were processed

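GRO-seq reads were counted by the authors with HOMER over whole RefSeq gene bodies of mm9, per the file headers, and the submitters' processing notes name FastQC, Bowtie, Bowtie2, HOMER 4.3 and edgeR. The deposited signal columns are scaled reads, each with the same sum, and all low values were whole multiples of 1 step (100%, tolerance 0.1), so whole reads were recovered. The columns name a medium and a batch, not the mouse. RPKM was computed from the deposited scaled reads and the deposited length, with the longest transcript of each symbol. The authors' 4 deposited RPKM columns were not used. The log2 fold changes and FDR (an adjusted p-value) of the authors come from edgeR with batch as a term, per the file headers, and were copied. Whether counting used strand, and whether coordinates start at 0, is not given in the sources used here.

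HOMER calls of H3K27me3 by the authors set each ChIP library against its own input and kept regions at least 4-fold over it, from windows of 500 bp in the narrow and 1000 bp in the broad lists, per the file headers. The score, the fold (a ratio of tags to input) and the signal (tags per 10M) are the authors' deposited values. Input and H3 samples were not otherwise analysed here.

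The test was limma 3.58.1 in R 4.3.3 with a mean trend on log2(RPKM + 0.5), fitted to 11602 of 24016 symbols, and edgeR 4.0.16 and DESeq2 1.42.0 were run on the recovered reads. Fits were tested on simulated data. The header calls the numbers of the columns batch, and this is where the pairing comes from. Deviations of libraries of the same batch from their group means correlated at 0.0126. With the batch as a block limma called 0 genes in all (3837 at an unadjusted p under 0.05), against 17. With 2 libraries a group, p-values measure the spread between these libraries.

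The members and lists were chosen with earlier results of these data known. All members are named, and of each pathway list up to 4 tested genes with the largest difference. Alternatives were listed by result, with the 10 members or all lists as 1 result, as 78 planned entries and 4 added after seeing the data.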

Additional observations from a re-analysis of the deposited data

How the results depend on the processing

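Over 19 alternatives each, the log2 difference of Bmp2 kept its direction between 0.83 and 1.95 and passed its test in 7, that of Bmp7 between -1.16 and -0.31 in 6, Bmpr1a between -0.57 and -0.27 in 1, Id2 between -2.12 and -0.96 in 1, Id3 between -0.99 and -0.67 in 2 and Smad7 between 0.19 and 0.71 in 1. Id1 never passed and changed sign in 4: 0.051 in edgeR without the block, 0.093 in DESeq2 without the block, 0.23 without the ENRI library of batch 1 (-0.79 to 0.23 with 1 library left out) and 0.045 in edgeR with a filter of 10 reads, the last chosen after seeing the data. The cause of these differences between settings was not tested.

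Against 17 genes called in all, limma called 1 with a pseudocount of 0.1, 0 without a filter, 1491 with a filter of 10 reads (544 higher and 947 lower), 925 with quantile normalization (504 higher and 421 lower), 0 with TMM factors and 0 with the replicate block. On whole reads edgeR called 979 without the replicate block and 920 with it, and DESeq2 2736 and 1664. Leaving out 1 library gave 0 to 5792. With a filter of 10 reads, added after seeing the data, edgeR called 0 (4000 at an unadjusted p under 0.05). Of the 10 genes described limma called 0, also with the replicate block, 2 with the filter of 10 reads (Bmp7 and Id3), 1 with quantile normalization, and 0 to 5 with 1 library left out. With and without the replicate block edgeR called 2, and DESeq2 called 2 with it and 3 without it. Of the other pathway genes, 0 in limma, the counts were 4 with the filter of 10 reads, 2 with quantile normalization, 2 in edgeR and 5 with the replicate block, 8 in DESeq2, 7 with the replicate block, and 0 to 14 with 1 library left out.

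Of the 4 promoters marked in the ENRI narrow list, 2 lay within 1 kb of the start, 2 were in the top 50% of the list by score and 1 at 8-fold over input. Within 5 kb that list marked 6, with Id2 and Smad7 added. The single promoter in the ENRI broad list became 0 within 1 kb, 2 within 5 kb, 0 where at least 50% of the region or window had to be covered and 0 at 8-fold. The 3 in the WENRC narrow list became 5 within 5 kb and 0 at 8-fold, and the single one in the WENRC broad list 2 within 5 kb, 0 in the top 50% by score and 0 at 8-fold. Depth limits Bmp4 and Bambi most, Bmp4 with 13 and 2 reads in ENRI, against 0 and 0 in WENRC, and Bambi with 22 and 19 reads in ENRI, against 59 and 38 in WENRC.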
